A study of Bombyx mori with 4 samples.

Results

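The proteasome and ubiquitin system was examined in the testis of the silkworm *Bombyx mori*, in the *op* mutant and in the wild type. Members were the array probes whose human-homology description named the proteasome, ubiquitin, SUMO, a cullin or COP9, without ribosomal proteins. This rule took 64 probes of 43803 on the array, from 32 expressed sequence tags (ESTs) that carry the names of 30 human genes. Each EST had 2 probes. The rule used names only, and no measured value.

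Testis RNA came from *op* larvae (2 arrays) and wild-type larvae (2 arrays) on day 3 of the fifth instar, the last larval stage. Both genotypes belong to strain o751 and were reared on mulberry leaves with no further treatment. *op* larvae have translucent skin, little uric acid and infertile males, and the causative gene is not known. Nothing in the labels says that the replicates came from separate animals or pools, so the p-values measure the spread between these samples, which may be technical.

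Proteins that are to be destroyed are tagged with ubiquitin by a relay of enzymes. An E1 enzyme activates ubiquitin, an E2 enzyme carries it, and an E3 ligase chooses the substrate. The tagged protein is unfolded by the regulatory particle of the proteasome and cut inside its barrel-shaped core, while deubiquitinases take ubiquitin off again. SUMO, a small relative of ubiquitin, is attached by enzymes of its own, and the COP9 signalosome removes another relative, NEDD8, from the cullin scaffolds of E3 ligases. In the testis this system is known for its part in remodelling sperm cells, and *Drosophila* has proteasome subunits made only in the male germ line.

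Signals are given as log2 of the intensity relative to the 75th percentile of the same array, so that 0 is the level of that percentile and a difference of 1 is a 2-fold difference. Levels are compared only within a probe. All differences are *op* minus wild type. Testing required a signal well above background on both *op* arrays or on both wild-type arrays, which 62 of the 64 probes had. On 61 of them all 4 arrays were well above background. With 2 arrays against 2, an exact two-sided permutation test cannot give a p below 0.333, so probes were tested with limma across the whole array, with p adjusted over all 30376 tested probes.

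No member passed the adjusted threshold of 0.05, where 0.316% of all tested probes did. The lowest adjusted p of a member was 0.0986. At an unadjusted p under 0.05, 9 member probes stood out, all of them lower in *op* testes and 0 higher. Among them were both probes of PSME3, UBE2J2 and COPS8 and 1 probe each of USP12 and USP46. They made up 14.5% of the tested members, where 18.7% of all tested probes were at that level, 8.04% lower and 10.6% higher. Without *op* replicate 2 the count was 22 (15 lower and 7 higher), or 35.5% of members against 33.4% of all tested probes. It was 3, or 4.84%, without wild-type replicate 1 and also without wild-type replicate 2, against 7.80% and 6.99% of all tested probes. A genotype left with 1 array is assumed in these fits to vary like the other genotype.

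Over all tested members, 45 differences were below 0 and 17 above, with a median of −0.11, against 14217 below, 16159 above and a median of 0.031 over all tested probes. With scaling to the array median, the members split into 51 below and 11 above and all tested probes into 17286 below and 13090 above. With the normexp background correction, the members split into 37 below and 25 above and all tested probes into 12679 below and 17697 above. The 2 *op* arrays lay below both wild-type arrays on 28 of the 62 member probes, or 45.2%, where 24.9% of all tested probes did. They lay above both on 5 probes, or 8.06%, where 28.8% of all tested probes did. In either direction the genotypes did not overlap on 33 probes, or 53.2%, against a background of 53.7%. Members are not independent of each other, since the probes come in pairs from an EST. Differences ran from −1.02 for PSME3 to 0.41 for MARCH6, and 33 were smaller than 0.2 in size.

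**Figure D1:**
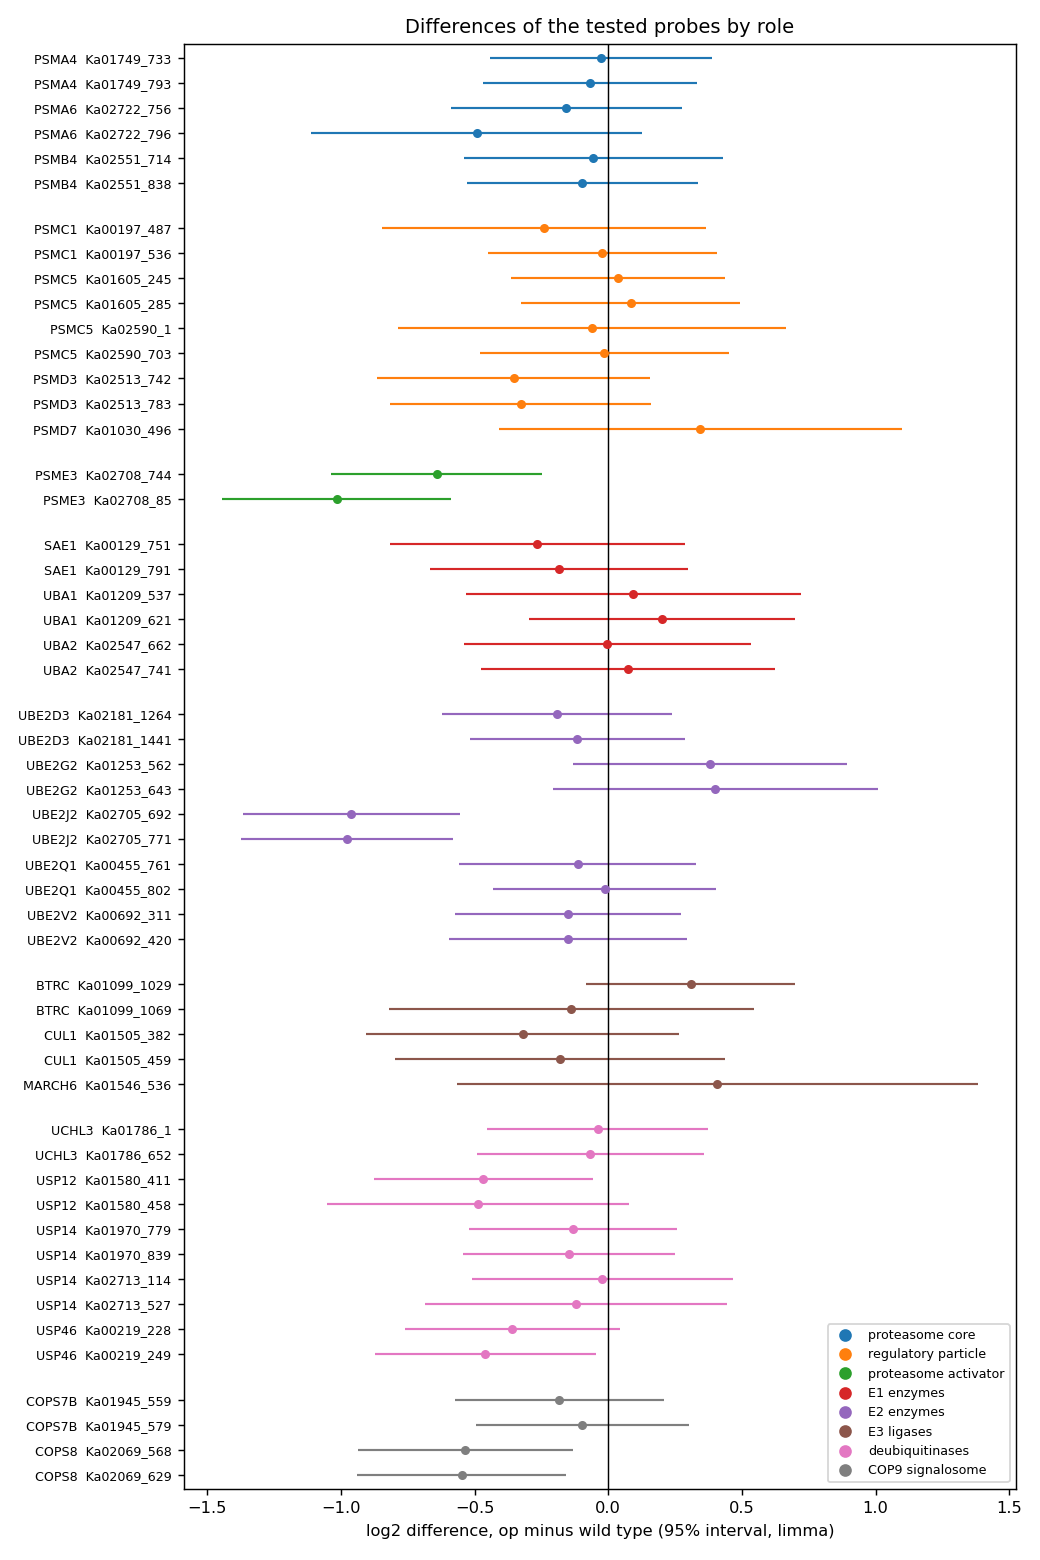
Log2 difference, *op* minus wild type, of 52 tested probes, by role. Points are fitted differences and bars the 95% interval from limma (2 arrays per genotype). The intervals of 8 of these probes lie wholly below 0 and those of the other 44 include 0.

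The tissue label was set against marker genes. All 7 probes of the germ-cell genes NANOS3, PIWIL4, AURKC and TUBA3D were well above background on all 4 arrays. Their summed signal, in units of the 75th percentile, was 190 to 247 in *op* testes and 207 to 231 in wild-type testes. Most of that sum came from the TUBA3D probe Ka01220_828, so it says little about the other genes. The differences were −0.24 and 0.02 for TUBA3D, −0.35 and −0.29 for PIWIL4, −0.09 and 0.01 for NANOS3, and 0.40 for the dim AURKC probe. Markers of other tissues differed between genotypes on some genes and not on others. Of 6 muscle probes 4 were tested, all higher in *op* testes at an unadjusted p under 0.05, with sums of 3.98 to 5.36 in *op* testes and 0.737 to 2.19 in wild-type testes, while TPM3 and TMOD1 were not well above background on any array. All 7 basement membrane probes were higher, 5 of them at that level. Their sums, 5.20 to 5.54 in *op* and 4.21 to 4.82 in wild type, came mostly from LAMA4. Its differences were 0.06 and 0.10 with overlapping arrays, and those of COL4A5, COL4A6 and NID1 ran from 0.96 to 3.09. The NID1 probe with 3.09 was well above background on 0 wild-type arrays and was tested through the *op* arrays. Of 11 fat body probes 10 were tested and 8 were higher, 2 of them at that level. Sums were 19.7 to 55.4 in *op* and 12.5 to 16.8 in wild type, and LPL was not well above background on any array. SCD gave 6 of the higher probes, including both at that level, and *op* replicate 1 was the highest array on all 6. Of the 2 at that level, Ka00453_1 was well above background on only 1 wild-type array and was tested through the *op* arrays. SCD5 had differences of 0.06 and 0.18 with overlapping arrays, and PLIN4 was lower (−0.41 and −0.15). Of 17 gut enzyme probes 14 were tested and 11 were lower, 6 of them at that level. Sums were 8.35 to 8.98 in *op* and 10.9 to 11.3 in wild type, with CELA1 not well above background on any array. The 3 higher probes were of CELA2A, with Ka01436_754 (0.75) at that level and tested through the *op* arrays. Both CPA4 probes were well above background on 0 *op* arrays and both CPB1 probes on 1, so they were tested through the wild-type arrays. No marker passed the adjusted threshold. The part of these markers in the differences of the members was not tested. In a whole testis, fewer cells of a type and less RNA per cell cannot be told apart.

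The 3 core subunits were a little lower in *op* testes on all 6 probes, by amounts that did not exceed the spread between arrays. Their median difference was −0.083, the adjusted p ran from 0.346 to 0.936, and 0 of 6 reached an unadjusted p under 0.05. Wild-type replicate 2 was the highest array on all 6 probes, and without it 4 were lower and 2 higher, with a median of −0.015. PSMA4 and PSMA6 build the outer alpha rings that gate the barrel, and PSMB4 belongs to the inner beta rings, which hold the cutting sites.

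The PSMA4 probe Ka01749_733 read 2.48 and 2.47 in *op* testes, against 2.42 and 2.59 in wild-type testes. Its partner Ka01749_793 read 3.25 and 3.28 in *op* testes, against 3.28 and 3.38 in wild-type testes. The *op* values of the first lay between the wild-type values, and those of the second lay just below them. The fitted differences were −0.03 (SE 0.16) and −0.07 (SE 0.15).

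PSMB4 differed as little. Ka02551_714 read 5.38 and 5.11 in *op* testes, against 5.20 and 5.40 in wild-type testes. Ka02551_838 read 5.67 and 5.54 in *op* testes, against 5.62 and 5.79 in wild-type testes. The genotypes overlapped on both probes, and the differences were −0.06 (SE 0.18) and −0.10 (SE 0.16).

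PSMA6 had the lowest values of the core relative to wild type. Ka02722_756 read 5.35 and 5.20 in *op* testes, against 5.35 and 5.51 in wild-type testes, and Ka02722_796 read 3.77 and 4.28 in *op* testes, against 4.42 and 4.62 in wild-type testes. On both probes the *op* arrays lay below the wild-type arrays, on the first narrowly and on the second mainly through *op* replicate 1. The differences were −0.16 (SE 0.16, adjusted p = 0.639) and −0.49 (SE 0.23, adjusted p = 0.346). Over the 6 core probes, the 95% intervals of the ratio of *op* to wild type reached down to 0.463 and up to 1.35, and all 6 included 1.

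The regulatory particle, which caps the core, showed no common direction. Of its 10 probes 9 were tested, with 6 differences below 0 and 3 above, a median of −0.022, and 0 at an unadjusted p under 0.05. The median was 0.026 with the normexp correction, 0.020 with *op* replicate 1 left out and 0.049 with wild-type replicate 2 left out. All 9 intervals of the ratio included 1, within bounds of 0.549 and 2.14.

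PSMC1 and PSMC5 are 2 of the ATPases that unfold the substrate. The PSMC1 probe Ka00197_487 read −3.88 and −4.18 in *op* testes, against −4.01 and −3.57 in wild-type testes, and Ka00197_536 read −3.73 and −3.65 in *op* testes, against −3.76 and −3.57 in wild-type testes. The genotypes overlapped on both, with differences of −0.24 (SE 0.23) and −0.02 (SE 0.16).

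PSMC5 was named for 2 ESTs. In the first, Ka01605_245 read 4.61 and 4.65 in *op* testes, against 4.54 and 4.65 in wild-type testes, and Ka01605_285 read 2.91 and 2.78 in *op* testes, against 2.72 and 2.80 in wild-type testes. In the second, Ka02590_703 read 3.80 and 4.07 in *op* testes, against 3.89 and 4.01 in wild-type testes, and Ka02590_1 read −4.20 and −3.50 in *op* testes, against −3.80 and −3.78 in wild-type testes. The genotypes overlapped on all 4 probes, and the differences lay between −0.06 and 0.08.

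PSMD3 and PSMD7 belong to the lid of the particle, where ubiquitin is taken off the substrate. The PSMD3 probe Ka02513_742 read 0.73 and 1.10 in *op* testes, against 1.23 and 1.31 in wild-type testes, and Ka02513_783 read 2.43 and 2.76 in *op* testes, against 2.89 and 2.95 in wild-type testes. Both *op* arrays lay below both wild-type arrays on each probe, with *op* replicate 1 the lowest. The differences were −0.35 (SE 0.19, adjusted p = 0.396) and −0.33 (SE 0.18, adjusted p = 0.410).

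PSMD7 stood the other way, through a single array. Ka01030_496 read −3.54 and −4.23 in *op* testes, against −4.35 and −4.11 in wild-type testes, so that *op* replicate 1 was the highest and *op* replicate 2 lay between the wild-type arrays. The difference was 0.34 (SE 0.28, adjusted p = 0.563). The other probe, Ka01030_244, was well above background on only 1 *op* array and 1 wild-type array and was not tested. It read −5.44 and −6.26 in *op* testes, against −5.44 and −6.41 in wild-type testes.

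PSME3 had the lowest difference of all members. It encodes the gamma subunit of the PA28 activator, a ring that docks on the core in the nucleus and, in mammals, opens it to substrates that carry no ubiquitin. Ka02708_85 read −1.88 and −1.79 in *op* testes, against −0.73 and −0.92 in wild-type testes. Ka02708_744 read 2.87 and 2.94 in *op* testes, against 3.57 and 3.53 in wild-type testes. The replicates of each genotype lay close together on both probes, and the genotypes were well apart. The differences were −1.02 (SE 0.16, adjusted p = 0.104) and −0.64 (SE 0.15, adjusted p = 0.149), or ratios of 0.494 (95% interval 0.367 to 0.666) and 0.641 (0.488 to 0.843). Neither passed the adjusted threshold. Over all alternatives the adjusted p of the first probe ran from 0.0435 to 0.565. It was under the threshold only with *op* replicate 1 or *op* replicate 2 left out, where the 2 wild-type arrays alone gave the spread and 7.94% and 7.79% of all tested probes passed.

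**Figure D2:**
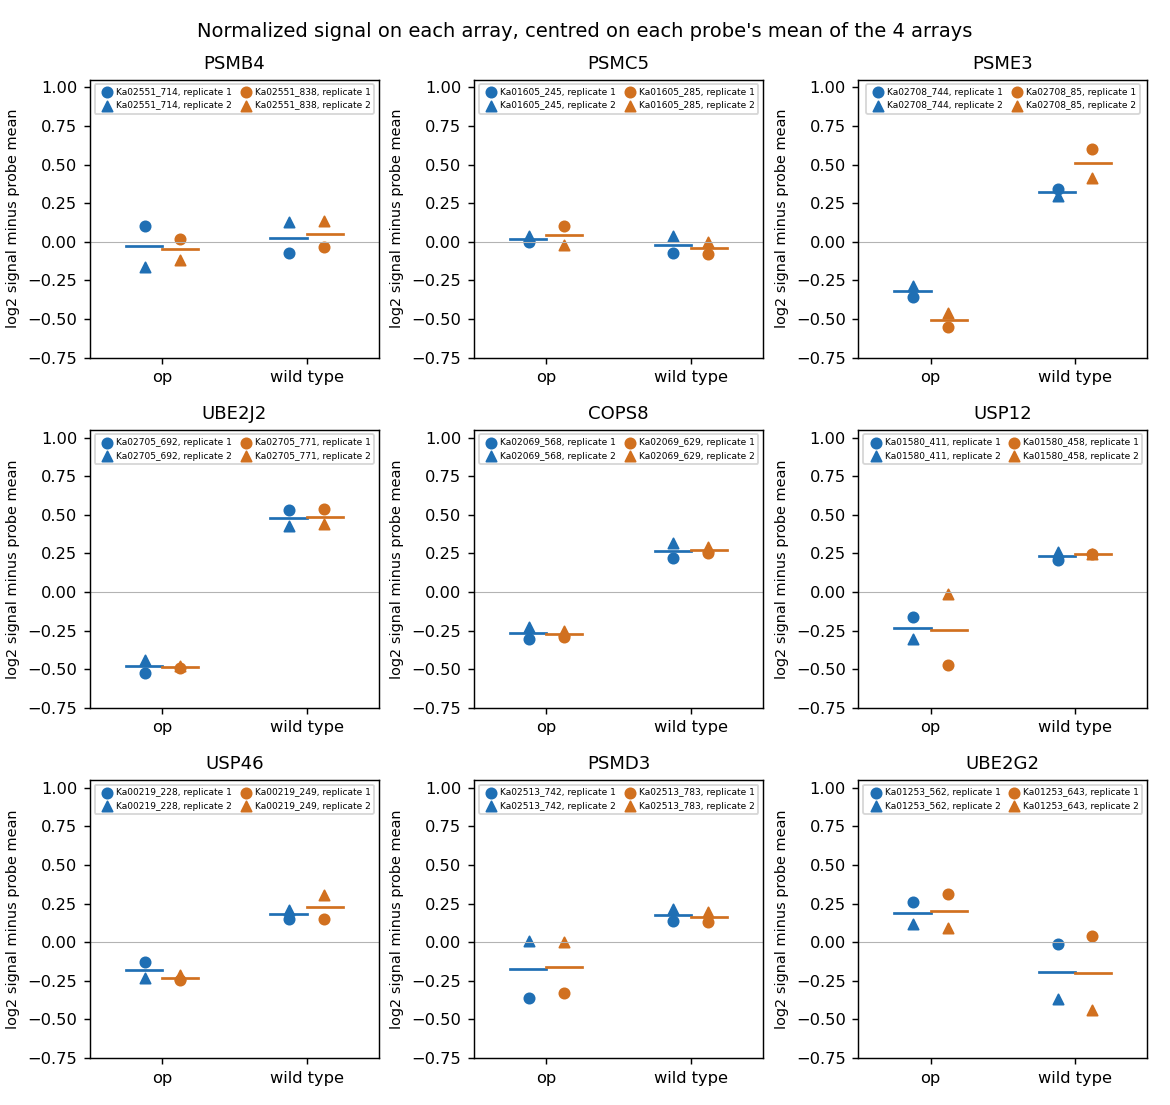
Log2 signal of 9 genes on each array, *op* left and wild type right, minus the probe's mean over the 4 arrays. Colours mark the 2 probes of an EST, circles replicate 1, triangles replicate 2, and bars the genotype means. PSME3, UBE2J2 and COPS8 separate the genotypes on both probes, whereas the genotypes overlap in PSMB4 and PSMC5.

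Of the 28 probes of conjugation enzymes 27 were tested. Their differences were below 0 on 17 and above 0 on 10, with a median of −0.11, and 3 reached an unadjusted p under 0.05, all lower. That was 11.1% of them, where 18.7% of all tested probes were at that level and 8.04% were lower. The median did not keep its size across settings: it was 0.0072 with the normexp correction, −0.21 after scaling to the array median and −0.040 without wild-type replicate 2.

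Among the E1 enzymes 3 probes were higher and 3 lower, with a median of 0.035 and 0 at an unadjusted p under 0.05. UBA1, the main E1 of ubiquitin, read highest relative to wild type. Its probe Ka01209_537 read −2.30 and −2.86 in *op* testes, against −2.67 and −2.68 in wild-type testes, and Ka01209_621 read −3.39 and −3.73 in *op* testes, against −3.81 and −3.71 in wild-type testes. The genotypes overlapped on both, with differences of 0.09 (SE 0.24) and 0.20 (SE 0.19).

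SAE1, which with UBA2 forms the E1 of SUMO, read lowest relative to wild type. Ka00129_751 read 0.67 and 1.10 in *op* testes, against 1.11 and 1.19 in wild-type testes, and Ka00129_791 read 2.03 and 2.35 in *op* testes, against 2.35 and 2.39 in wild-type testes. Only *op* replicate 1 was clearly low, and the differences were −0.26 (SE 0.21) and −0.18 (SE 0.18). The differences of its partner UBA2 were −0.0041 and 0.07.

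The E2 enzymes held the widest contrast between genes. UBE2J2 is anchored in the membrane of the endoplasmic reticulum and in mammals serves the disposal of misfolded proteins there. Its probe Ka02705_692 read −1.17 and −1.08 in *op* testes, against −0.11 and −0.22 in wild-type testes. Its probe Ka02705_771 read −0.38 and −0.36 in *op* testes, against 0.65 and 0.56 in wild-type testes. On both, the gap between genotypes was many times the gap between replicates. The differences were −0.96 (SE 0.15, adjusted p = 0.104) and −0.98 (SE 0.15, adjusted p = 0.0986), or ratios of 0.514 (95% interval 0.388 to 0.681) and 0.508 (0.386 to 0.669).

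The UBE2J2 probes missed the adjusted threshold in the comparison above and passed it in some alternatives. With the normexp correction their adjusted p was 0.0491 and 0.0459, and Ka02705_771 had 0.0453 in a fit with a robust, trended variance. In those settings 1.36% and 1.53% of all tested probes passed. Both probes were also under the threshold with either *op* array left out, fits in which the wild-type arrays alone gave the spread and 7.94% and 7.79% of all tested probes passed, while without a wild-type array their adjusted p was 0.553 to 0.574. Over all alternatives the adjusted p of the 2 probes ran from 0.0409 to 0.574, and the difference stayed between −1.07 and −0.84.

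UBE2G2, another E2 known for the same disposal route, read the other way. Ka01253_562 read −0.50 and −0.64 in *op* testes, against −0.77 and −1.13 in wild-type testes, and Ka01253_643 read −0.14 and −0.36 in *op* testes, against −0.41 and −0.89 in wild-type testes. The genotypes did not overlap, but wild-type replicate 1 lay close to the *op* arrays. The differences were 0.38 (SE 0.19, adjusted p = 0.372) and 0.40 (SE 0.23, adjusted p = 0.416). They were 0.20 and 0.16 without wild-type replicate 2, and 0.56 and 0.64 without wild-type replicate 1.

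Further E2 enzymes lay nearer to 0. UBE2D3, which works with many ligases, had −0.19 and −0.12. UBE2V2, an inactive E2 relative that helps to build chains of a particular linkage, had −0.15 on both probes. UBE2Q1 had −0.11 and −0.01. None of these 6 probes reached an unadjusted p under 0.05, and their adjusted p ran upward from 0.573.

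The E3 ligases had 6 probes lower and 3 higher of 9 tested, with a median of −0.14. MARCH6, a ligase of the endoplasmic reticulum whose yeast counterpart is Doa10, read highest relative to wild type, through 1 array. Ka01546_536 read −3.51 and −4.52 in *op* testes, against −4.48 and −4.37 in wild-type testes, and the difference was 0.41 (SE 0.37, adjusted p = 0.595). Only *op* replicate 1 was high, and *op* replicate 2 was the lowest of the 4 arrays. Without *op* replicate 2 the difference was 0.91, and without *op* replicate 1 it was −0.097. The adjusted p ran from 0.0474 to 0.976 over all alternatives, and the lowest came from the fit with *op* replicate 1 as the lone *op* array, where the wild-type arrays alone gave the spread and 7.79% of all tested probes passed. The other probe, Ka01546_546, was well above background on 0 *op* arrays and 1 wild-type array and was not tested. It read −6.24 and −6.95 in *op* testes, against −6.14 and −7.01 in wild-type testes.

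BTRC, an F-box protein that brings substrates to cullin ligases, was dim and its probes disagreed. Ka01099_1029 read −4.97 and −4.95 in *op* testes, against −5.24 and −5.30 in wild-type testes, a difference of 0.31 (SE 0.15, adjusted p = 0.350). Ka01099_1069, well above background on 1 *op* array and both wild-type arrays, read −5.70 and −5.17 in *op* testes, against −5.12 and −5.47 in wild-type testes, a difference of −0.14 (SE 0.26). CUL1, the cullin scaffold of these ligases, had differences of −0.32 (SE 0.22) and −0.18 (SE 0.23), with *op* replicate 2 the lowest array on both probes.

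The deubiquitinases were lower in *op* testes on all 10 probes, which came from 5 ESTs, with a median of −0.14. Of these probes 2, or 20%, reached an unadjusted p under 0.05, where 18.7% of all tested probes did and 8.04% were lower. With the normexp correction and without wild-type replicate 1, 9 of the 10 were lower, and 8 were without *op* replicate 1 and also without *op* replicate 2. The count at an unadjusted p under 0.05 was 0 with the replicate block, with no filter, without wild-type replicate 1 and without wild-type replicate 2. USP12 and USP46 are close relatives that are switched on by the same partner proteins, and they had the lowest differences of the deubiquitinases. The USP12 probe Ka01580_411 read −0.38 and −0.52 in *op* testes, against −0.01 and 0.04 in wild-type testes, and Ka01580_458 read −1.56 and −1.10 in *op* testes, against −0.84 and −0.84 in wild-type testes. Both *op* arrays were below both wild-type arrays. The differences were −0.47 (SE 0.15, adjusted p = 0.233) and −0.49 (SE 0.21, adjusted p = 0.315).

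The USP46 probe Ka00219_249 read −1.15 and −1.13 in *op* testes, against −0.76 and −0.60 in wild-type testes, and Ka00219_228 read −0.42 and −0.52 in *op* testes, against −0.15 and −0.08 in wild-type testes. The genotypes again did not overlap, with differences of −0.46 (SE 0.16, adjusted p = 0.240) and −0.36 (SE 0.15, adjusted p = 0.305). As relatives, USP12 and USP46 could share signal between their probes, which was not analysed here. USP14, which works on the proteasome itself, was named for 2 ESTs, with differences of −0.13 and −0.15 in the first and −0.02 and −0.12 in the second. UCHL3, which trims short tails from ubiquitin and NEDD8, had −0.04 and −0.07.

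The COP9 signalosome was lower in *op* testes on all 4 probes, under each scaling and in each other alternative, with a median of −0.36. Of these probes 2 were at an unadjusted p under 0.05, where 18.7% of all tested probes were and 8.04% were lower. With the replicate number as a block the count was 0, where 15.7% of all tested probes were at that level. COPS8 carried the larger difference. Ka02069_568 read 0.67 and 0.74 in *op* testes, against 1.19 and 1.29 in wild-type testes, and Ka02069_629 read 1.59 and 1.63 in *op* testes, against 2.14 and 2.18 in wild-type testes. Replicates lay within 0.1 of each other and the genotypes were well apart. The differences were −0.53 (SE 0.15, adjusted p = 0.195) and −0.55 (SE 0.15, adjusted p = 0.183), or ratios of 0.690 (95% interval 0.522 to 0.913) and 0.684 (0.522 to 0.897).

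COPS7B, a second subunit, read −0.05 and −0.06 in *op* testes, against 0.10 and 0.15 in wild-type testes on Ka01945_559. On Ka01945_579 it read 1.72 and 1.69 in *op* testes, against 1.75 and 1.85 in wild-type testes. The *op* arrays were again the lower pair, by little, with differences of −0.18 (SE 0.15) and −0.10 (SE 0.15).

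The pair of probes on an EST gave a check within each array. Both probes were tested in 30 of the 32 ESTs, and their differences had the same sign in 27, with BTRC and UBA2 among the exceptions. The 2 differences lay a median of 0.078 apart, and at most 0.45 (BTRC). Across these 30 ESTs Pearson's r was 0.87 and Spearman's rho 0.84, given as a description, since both probes read the same RNA extracts and some pairs may overlap in sequence. When the probes of an EST were averaged before the fit, 5 of 32 ESTs had an unadjusted p under 0.05 (UBE2J2, PSME3, COPS8, USP12 and USP46). They made up 15.6% of the member ESTs, where 18.1% of all tested ESTs were at that level. In this fit 0 member ESTs passed the adjusted threshold, where 0.338% of all tested ESTs did. UBE2J2 then had a difference of −0.97 (SE 0.15, adjusted p = 0.100) and PSME3 one of −0.83 (SE 0.16, adjusted p = 0.119).

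**Figure D3:**
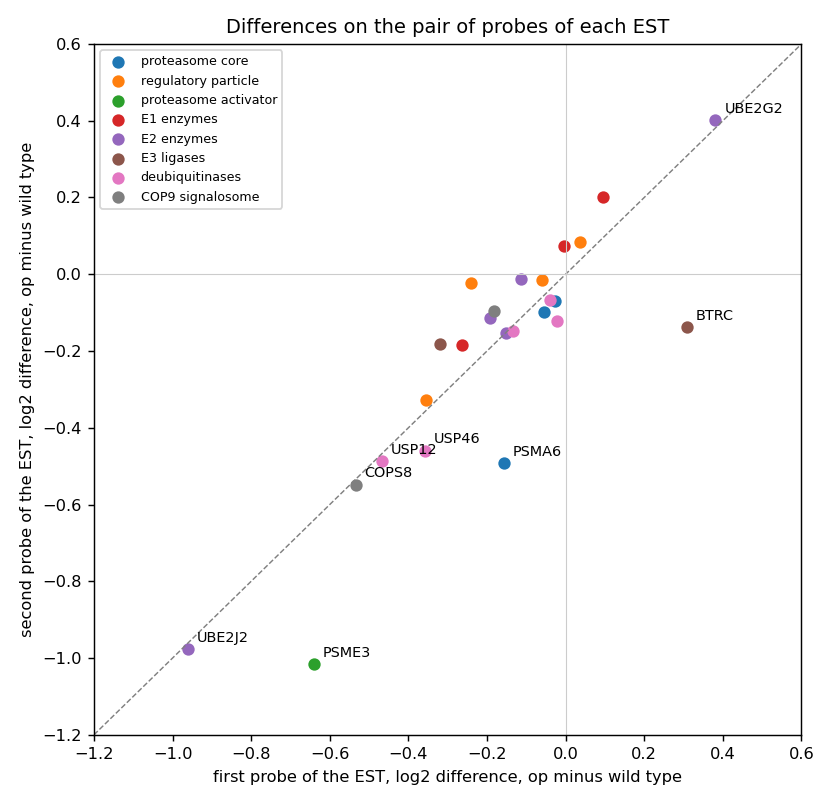
Log2 difference, *op* minus wild type, on the first probe of each EST (horizontal) and on the second (vertical), for 25 ESTs with both probes tested, coloured by role. The dashed line marks equal differences. UBE2J2 and COPS8 lie on the line, PSME3 is lower on its second probe, and BTRC changes sign between probes.

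The spread between replicates set the limits of these values. The median distance between replicates over the tested members was 0.216 in *op* and 0.084 in wild type, against 0.298 in *op* and 0.138 in wild type over all tested probes. The *op* arrays were close together in PSME3 (0.080) and the COP9 subunits (0.032). For 53 of the 62 probes the 95% interval of the ratio included 1. Over all 62 probes the lowest bound of the ratio was 0.367 (PSME3) and the highest 2.61 (MARCH6).

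Outside the rule, 23 further genes of the pathway by human name were counted, on a list drawn up with earlier results of these data known. Of their 47 probes 46 were tested, with 32 lower and 14 higher in *op* testes and a median of −0.27. None passed the adjusted threshold, and 14 had an unadjusted p under 0.05, all lower, where 18.7% of all tested probes were at that level and 8.04% were lower. BIRC3, an inhibitor of apoptosis with a ligase domain, had the lowest differences. Its probe Ka01369_708 read 0.71 and 0.77 in *op* testes, against 2.09 and 1.996 in wild-type testes, and Ka01369_865 read −0.28 and −0.30 in *op* testes, against 0.78 and 0.64 in wild-type testes. The replicates were close and the genotypes far apart, with differences of −1.30 (adjusted p = 0.0704) and −1.002 (adjusted p = 0.0986).

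Both probes were also at that level for BIRC6 (−0.78 and −0.65), a giant E2 that also inhibits apoptosis, and for the deubiquitinase FAM188A (−0.67 and −0.75). The same held for RNF2 (−0.65 and −0.74), a ligase for histone H2A, and for UBQLN1 (−0.61 and −0.65), a shuttle that brings tagged proteins to the proteasome. It also held for ATG3 (−0.58 and −0.54), the E2-like enzyme of autophagy. Single probes at that level belonged to ZFAND5 (−0.56) and to GPS1 (−0.43), a further subunit of the COP9 signalosome whose other probe had −0.31.

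**Figure D4:**
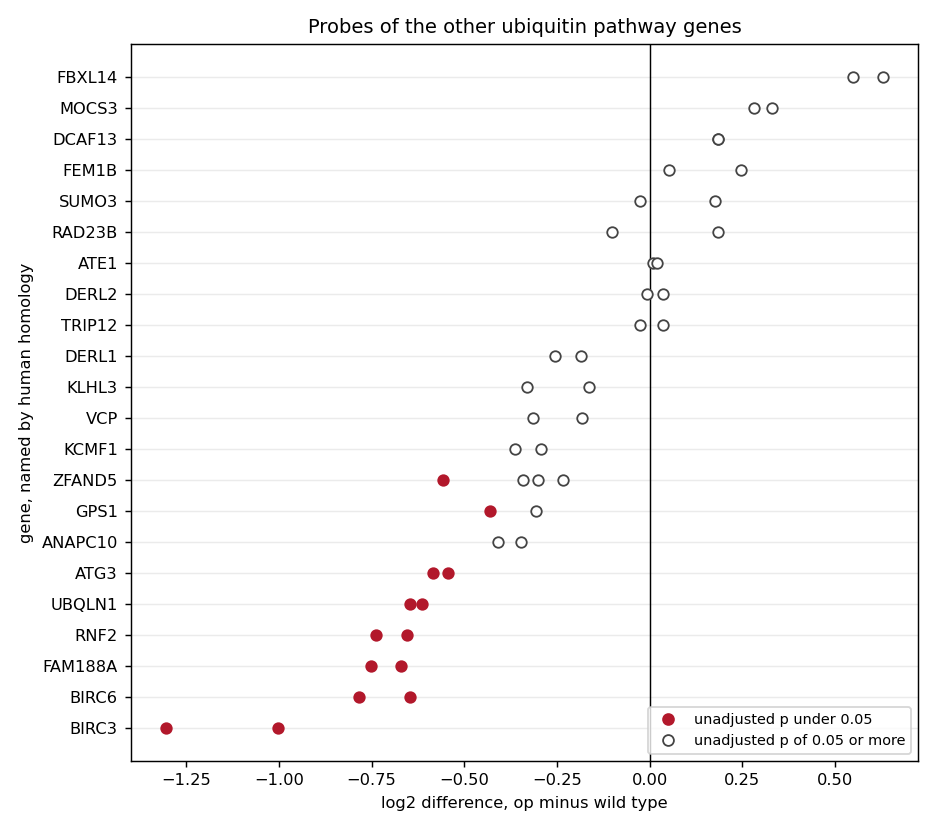
Log2 difference, *op* minus wild type, of the 46 tested probes of further pathway genes, a row per gene in order of its mean. Filled points mark the 14 probes at an unadjusted p under 0.05, all of them left of 0, with BIRC3 the farthest at −1.30.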

How the data were processed

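Testis RNA of 2 *op* and 2 wild-type samples was hybridised to 1-colour arrays on 1 slide, scanned together. The methods also name n = 5 for either genotype, but 4 arrays were used here. The authors read the spots with Feature Extraction 9.5. The deposited intensity of a spot has its background subtracted and carries quality flags. GeneSpring values that the authors deposited on a log2 scale served as an alternative. Their shift by the 75th percentile and their centring per probe were found from the values.

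From these, log2 intensity was taken here relative to each array's 75th percentile, without control spots (1417 of 45220) and spots flagged as outliers. None of the member spots was flagged or saturated. The test was the two-sided moderated test of limma 3.58.1 (lmFit, eBayes; R 4.3.3), adjusted after Benjamini and Hochberg. SE and 95% intervals come from that fit, which had 2.54 prior degrees of freedom. From 67.8% to 72.3% of probes were well above background, and precision is limited by having 2 arrays a genotype. The fit was also run on simulated data, where high recovery was required only of shifts far larger than any member's difference.

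Names came from the first 1999 of 12981 rows of a supplementary table of human homologs. Other rows were not used here, so more members may exist. MARCH6 was named from its description. Probe sequences and positions were not used here. Member genes are named by role, and some members counted in the totals are not reported here by name. Values of every array are given for core and regulatory particle probes and for genes with a dim probe. In other roles they are given for the gene with the largest mean fall and, where any rose, the largest mean rise. Values of COPS7B and USP46 were added after they were seen. Of the further pathway genes, those at an unadjusted p under 0.05 are named. The members and lists were chosen with earlier results of these data known. Alternatives changed the background correction, scaling, filter, flags, variance model, test, pairing, probe averaging and arrays used.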

Additional observations from a re-analysis of the deposited data

How the results depend on the processing

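The count of members past the adjusted threshold, 0 with limma (9 at an unadjusted p under 0.05), was 2 with the normexp correction (3.23% of members, 1.36% of all tested probes), 1 with a trended, robust variance (1.61% and 1.53%), and 0 to 4 with an array left out: 3 without *op* replicate 1 (4.84% and 7.94%), 4 without *op* replicate 2 (6.45% and 7.79%) and 0 without a wild-type array. The count at an unadjusted p under 0.05 was 4 with the replicate number as a block, 5 with probes of an EST averaged, 13 by the methods' t-test (0 after adjustment), and 3 to 22 with an array left out. With the block, 6.45% of members were at that level, against 15.7% of all tested probes. With averaging it was 15.6% of member ESTs against 18.1% of all tested ESTs. By the methods' t-test it was 21.0% of members against 13.9% of all tested probes. The share of members was thus below the background with the block and with averaging, and above it by the t-test. Whether the replicate numbers pair the samples is not stated. The deviations of same-numbered arrays had a correlation of −0.030 over probes, which cannot decide it. The block changed no call of a member at the adjusted threshold. Over all tested probes, 2.35% passed with the block and 0.316% without it. The median of the conjugation enzymes, −0.11, was 0.0072 with normexp, −0.16 with quantile normalization, −0.21 after scaling to the array median or with no scaling, −0.094 over probes above background on all arrays or with no filter, −0.014 with probes averaged, and −0.15 to −0.040 with an array left out. With an array left out, the median ran from −0.18 to −0.015 for the core, from −0.095 to 0.049 for the regulatory particle and from −0.13 to −0.054 for all members. The cause of these moves was not tested. Of the 62 tested probes, 38 kept their sign in all alternatives fitted per probe and 24 did not. The design named a spot signal for normexp, and the median spot signal was used.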
